A study of Homo sapiens with 13 samples.

Results

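The genes of P-TEFb, of the 7SK ribonucleoprotein that holds P-TEFb inactive, and of the super elongation complex that carries active P-TEFb were followed at their poly(A) sites in human cells with wild-type or slow RNA polymerase II (Pol II). The 9 members, CDK9, CCNT1, CCNT2, HEXIM1, LARP7, MEPCE, AFF4, ELL and ELL2, were taken by gene name out of 14575 genes with reads, and reads of all 9 were found. The cells were of the Flp-in TREx line of HEK293, which derives from human embryonic kidney, with an α-amanitin resistant form of Rpb1, the largest Pol II subunit, on an integrated plasmid. Rpb1 was either wild-type (WT, 5 libraries) or carried the R749H substitution, which slows elongation (4 libraries). Every library of both groups came from cells given doxycycline (2 µg/ml, 24 hr per the labels) to induce this Rpb1 and α-amanitin (2.5 µg/ml, 42 hr) to inhibit the endogenous one, so there was no group without α-amanitin. For these libraries the methods of the study give a shorter induction before α-amanitin, with doxycycline kept on during it. The labels name 1 cell line for each form of Rpb1, so a difference between the lines and a difference between the forms of Rpb1 cannot be told apart. The 3’ READS method sequences the junction of mRNA and poly(A) tail, so each read marks the 3’ end of 1 RNA, and a gene's reads need no correction for its length. The labels number the libraries as replicates, and the study calls them biological replicates.

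P-TEFb is the kinase CDK9 bound to cyclin T1 (CCNT1) or cyclin T2 (CCNT2). It phosphorylates the C-terminal domain of Rpb1, the pausing factor NELF and the Spt5 subunit of DSIF, and thereby releases Pol II paused near promoters into elongation. Much of the cell's P-TEFb is kept inactive by the 7SK RNA, on which HEXIM1 or its relative HEXIM2 inhibits the kinase. MEPCE caps the 5’ end of 7SK RNA and LARP7 protects its 3’ end. Released P-TEFb can join the super elongation complex, in which AFF4 is the scaffold and ELL and ELL2 increase the rate at which Pol II adds nucleotides.

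Between 2479851 and 10135014 reads lay within 5 kb downstream of a stop codon in the WT libraries, and between 3863468 and 6475987 in the R749H libraries. R749H replicate 3 stood apart, with 41033 isoforms (single 3’ end positions), of which 6.6% had 1 read, against 30% to 36.2% in the other libraries. Whether isoforms with few reads were left out of it before deposit is not given in the sources used here, so 0 reads in this library need not mean that none was sequenced. TMM factors, which correct for the makeup of a library, moved with the group, at 1.04 to 1.26 in WT and 0.811 to 0.972 in R749H libraries, and values without these factors are given with the results. Of the marker genes of HEK293 cells, INA, VIM and LIN28B had between 99 and 822 reads in every library. VIM was lower in R749H (0.631-fold, limma adjusted p = 0.0194), LIN28B was higher (1.56-fold, limma adjusted p = 0.0233), and INA was not called. PAX2 had 85 reads in all, with 4 to 25 per WT library and 0 to 5 per R749H library. NEFM had 2 reads in all, and NEFL had none listed. Of the markers of other cell types, ALB had 3 reads in all, and PTPRC, COL1A2 and KRT5 had none listed. The level of POLR2A, which encodes Rpb1, was 84.7 ± 26.2 reads per 1000000 (CPM, after TMM scaling) in WT (SD, n = 5) and 369 ± 115 CPM in R749H (SD, n = 4). These reads end downstream of the genomic stop codon and the resistant Rpb1 is on a plasmid, so they do not check which Rpb1 the cells used.

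The sequences that matter for these genes are those at the ends of their mRNAs, where the poly(A) signal, most often AATAAA or ATTAAA, lies shortly before the cleavage site. Isoforms no more than 24 nt apart were joined into a poly(A) site, named by the distance of its main isoform from the stop codon. The 30 nt that end at the main isoform are given 5’ to 3’ from hg19 for most of the sites on which the results turn, with the signal in capitals.
MEPCE +563 (chr7:100031711-100031740, plus strand): ataaacttgatgtctagggcagtggccccc
HEXIM1 +379 (chr17:43227987-43228016, plus strand): agttatAATAAAtttaatatttgtaaatgt
HEXIM1 +1826 (chr17:43229434-43229463, plus strand): gtctaaaaattatATTAAAcatttattttg
ELL +1857 (chr19:18553705-18553734, minus strand): agttctagctgATTAAAtatggtctaactt
ELL +2087 (chr19:18553475-18553504, minus strand): tttcattctccAATAAAtttcactgaactg
ELL2 +1323 (chr5:95223252-95223281, minus strand): atgtggtcaaaAATATAaggattttgaatt
ELL2 +1480 (chr5:95223095-95223124, minus strand): aagatgtttgtctccagcatccagaaaaat
ELL2 +3771 (chr5:95220804-95220833, minus strand): atttcagttcAATAAAaatgttaactttgc
CDK9 +532 (chr9:130552325-130552354, plus strand): tggtccgttagaATTAAAagttgaattttt
CDK9 +3503 (chr9:130555296-130555325, plus strand): tagttggttaactAATACAtttgttcatgc
CDK9 +3557 (chr9:130555350-130555379, plus strand): aacatttttaaaAATACAtatattttttag
CCNT1 +4570 (chr12:49082246-49082275, minus strand): catcccatcAATAAAtgttaatggtaaaac
CCNT2 +2756 (chr2:135714945-135714974, plus strand): atATTAAAaagcattatctttaaacatcct
The search covered the sense strand and took the first present of the signals, namely AATAAA, then ATTAAA, then AGTAAA, then TATAAA, then CATAAA, then GATAAA, then AATATA, then AATACA, then AATAGA, then AAAAAG, then ACTAAA and then AATGAA. Of the 13378 sites of all genes, AATAAA was in the window of 57.5% and ATTAAA without AATAAA in that of 16.4%. AATACA was the first present in 1.61% and AATATA in 1.49%, and none of the 12 was found in 11.4%. The window of MEPCE +563 held none, but that of 40 nt, which was tried after the sequence was seen, held AATAAA at 31 nt before the end. For ELL2 +1480, the same wider window held AATAAA at 34 nt before the end. A match to these letters is a description and not a measured signal.

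All of these sites lay in the annotated 3’ UTR of their gene except CDK9 +3503 and +3557. The annotated 3’ end of CDK9 is 1249 nt from the stop codon, so these sites were 2254 and 2308 nt beyond it, where no gene is annotated on either strand. They were counted for CDK9 because reads up to 5 kb from a stop codon were assigned to it. The annotated end of AFF4 is 5664 nt from its stop codon, outside that range, so reads at that end were not counted and the reads of AFF4 are those of nearer ends. For HEXIM1 and ELL, a transcript on the other strand (HEXIM2-AS1 for HEXIM1) overlaps the main sites, and the reads carry their strand.

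**Figure D1:**
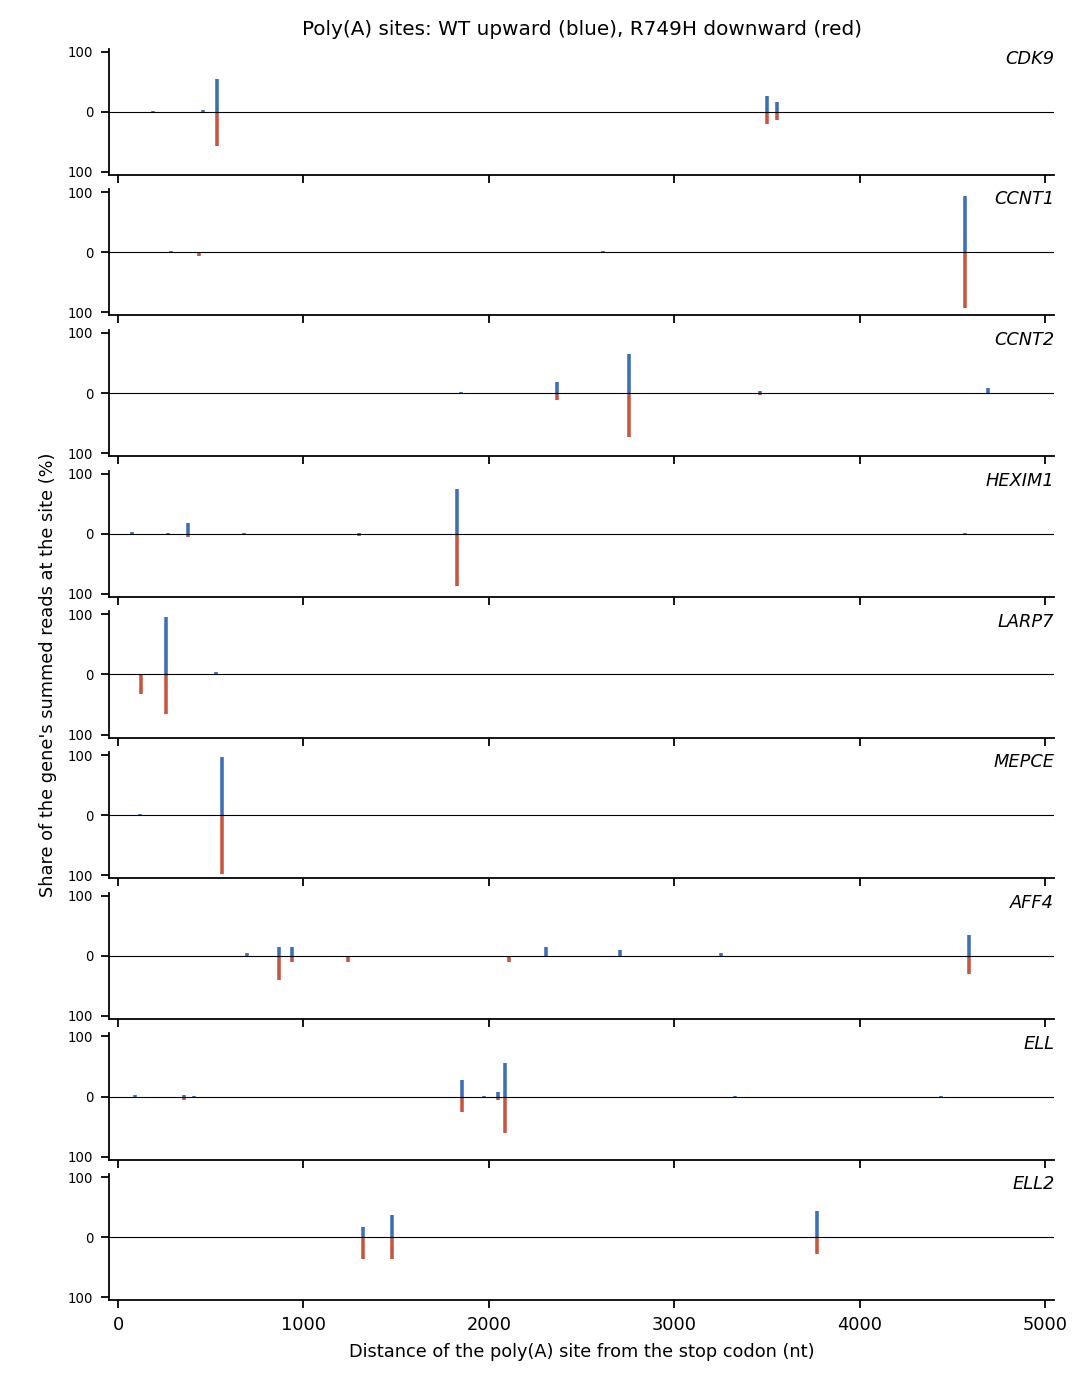
Poly(A) sites of the 9 members. The x axis is the distance of a site from the stop codon in nt, and the y axis is the percentage of the gene's reads, summed over libraries, with WT upward and R749H downward. MEPCE had 97.3% (WT) and 97.8% (R749H) of its reads at a single site, whereas CDK9, ELL, ELL2 and AFF4 used several sites.

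HEXIM1 and MEPCE of the 7SK complex and ELL of the super elongation complex were higher with slow Pol II, and no subunit of P-TEFb was called in either direction. Of the 9 members, 7 had enough reads to be tested (AFF4 and LARP7 did not), and 3 passed an adjusted p of 0.05 with limma, all higher in R749H: MEPCE, HEXIM1 and ELL. Of all 9494 genes tested, 2265 (23.9%) were called, 1038 (10.9%) higher and 1227 (12.9%) lower in R749H. Without TMM factors, with each library scaled by its total reads of the genes tested, 457 genes were called higher and 2486 lower. The median log2 change of all genes then moved from -0.07 to -0.38. The same 3 members were called in this setting and in each of the other 15 alternatives. Levels are shares of the reads of a library from many cells, so more cells with an RNA and more of it per cell cannot be told apart. The median log2 change of the 7 members tested was 0.64. Among the 1038 genes called higher, ordered by the size of the change, HEXIM1 was number 104, ELL number 134 and MEPCE number 190.

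**Figure D2:**
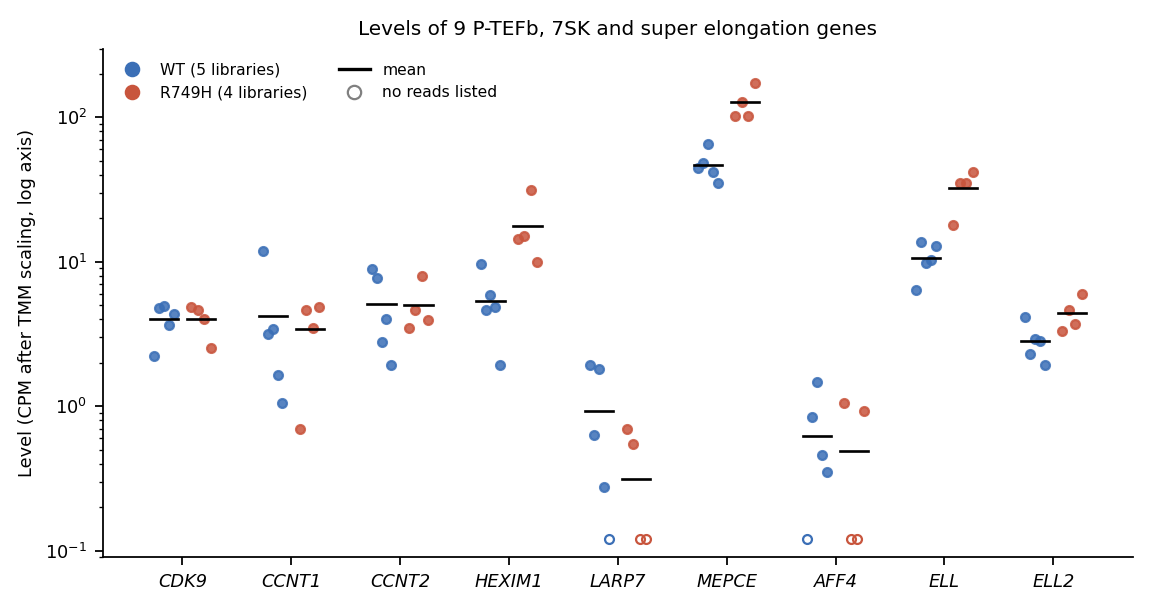
Level of each member in each library. The y axis is CPM after TMM scaling on a log axis, each point is 1 library (WT blue, R749H red), the line is the group mean, and open points at the bottom are libraries with no reads. The R749H libraries lie above all WT libraries for HEXIM1, MEPCE and ELL.

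HEXIM1, the inhibitor of P-TEFb in the 7SK complex, had the largest change of the members tested. Its levels in WT replicates 1 to 5 were 9.62, 4.61, 5.89, 4.84 and 1.93 CPM, from 30, 22, 36, 53 and 11 reads. In R749H replicates 1 to 4 they were 14.3, 15.1, 31.2 and 9.94 CPM, from 82, 55, 117 and 43 reads. The groups did not overlap, although R749H replicate 4 was only just above WT replicate 1. Groups that did not overlap with R749H higher were found for 9.72% of all genes tested. Without TMM factors, in CPM of the reads within 5 kb, R749H replicate 4 (8.05 CPM) was below WT replicate 1 (12.1 CPM). The groups of HEXIM1 then overlapped. The means were 5.38 ± 2.79 CPM in WT (SD, n = 5) and 17.6 ± 9.34 CPM in R749H (SD, n = 4). HEXIM1 was 3.33-fold higher in R749H (95% interval 1.85 to 5.98, log2 change 1.73, SE 0.40, limma adjusted p = 0.00578). R749H replicate 3 was the highest library, and without it the log2 change was 1.44 (adjusted p = 0.0146).

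MEPCE, the 7SK capping enzyme, was the most abundant member in every library. WT replicates 1 to 5 had 44.6, 48.4, 65.7, 41.9 and 35.1 CPM. R749H replicates 1 to 4 had 103, 129, 102.5 and 174 CPM. Every R749H library was above every WT library, and this was so without TMM factors too (91.1 CPM or more against 69.6 CPM or less). The means were 47.1 ± 11.5 CPM in WT (SD, n = 5) and 127 ± 33.8 CPM in R749H (SD, n = 4), from 3628 reads in all. MEPCE was 2.69-fold higher in R749H (95% interval 1.97 to 3.67, log2 change 1.43, SE 0.21, limma adjusted p = 0.000303). Without R749H replicate 3 the log2 change was 1.54 (adjusted p = 0.000272).

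LARP7, the third protein of the 7SK complex, which binds the 3’ end of its RNA, had only 29 reads in the 9 libraries. WT replicates 1 to 5 had 6, 3, 11, 3 and 0 reads, and R749H replicates 1 to 4 had 4, 2, 0 and 0. The counts overlapped, and the gene did not pass the filter on low counts, so no difference was tested. For WT replicate 5 and R749H replicate 4, 0 reads allow levels of up to 0.526 and 0.693 CPM (3 reads, counting error only), and WT replicate 1 was at 1.92 CPM.

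ELL, an elongation factor of the super elongation complex, rose with HEXIM1 and MEPCE. Its levels were 6.41, 13.8, 9.81, 10.3 and 13.0 CPM in WT replicates 1 to 5 and 18.1, 34.9, 35.2 and 41.6 CPM in R749H replicates 1 to 4. Again no R749H library was as low as a WT library, R749H replicate 1 being the nearest. The means were 10.7 ± 2.92 CPM in WT (SD, n = 5) and 32.5 ± 10.0 CPM in R749H (SD, n = 4). ELL was 2.99-fold higher in R749H (95% interval 1.99 to 4.50, log2 change 1.58, SE 0.28, limma adjusted p = 0.000945). Without R749H replicate 3 the log2 change was 1.55 (adjusted p = 0.00194).

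ELL2, the relative of ELL that can take its place in the complex, was not called. Its levels were 4.17, 2.3, 2.94, 2.83 and 1.93 CPM in WT and 3.31, 4.67, 3.74 and 6.01 CPM in R749H libraries. The groups overlapped through WT replicate 1. The estimate was 1.56-fold higher in R749H (95% interval 0.910 to 2.66, limma adjusted p = 0.217), which includes both no difference and a change of over 2-fold. AFF4, the scaffold, had 0, 4, 9, 5 and 2 reads in WT and 6, 0, 0 and 4 reads in R749H libraries, and was not tested.

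CDK9, the kinase itself, had nearly equal means of 4.0 ± 1.10 CPM in WT (SD, n = 5) and 4.02 ± 1.06 CPM in R749H (SD, n = 4). These levels include reads at +3503 and +3557, beyond the annotated end of the gene. Those sites held 25.6% and 16.0% of its summed reads in WT and 21.1% and 14.1% in R749H. The libraries ranged from 2.25 to 4.91 CPM in WT and from 2.54 to 4.88 CPM in R749H, on 7 to 40 reads each. The ratio of R749H to WT was 1.01 (95% interval 0.60 to 1.71, limma adjusted p = 0.980), so a difference of over 1.71-fold in either direction lay outside the interval. CCNT1, the cyclin that also binds HIV Tat, had the widest range in WT of the members tested, relative to its level, from 1.05 CPM (replicate 5) to 11.9 CPM (replicate 1), and from 0.697 to 4.85 CPM in R749H. Its ratio was 0.931 (95% interval 0.359 to 2.41, limma adjusted p = 0.926). CCNT2 had 5.09 ± 3.11 CPM in WT (SD, n = 5) and 5.02 ± 2.05 CPM in R749H (SD, n = 4). Its ratio on mean log2 levels was 1.10 (95% interval 0.577 to 2.09, limma adjusted p = 0.854), opposite in direction to the mean CPM. The intervals of both cyclins leave changes of 2-fold possible, and no difference was called on 4 to 44 reads per library.

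In order of mean level in WT, the members were MEPCE, ELL, HEXIM1, CCNT2, CCNT1, CDK9, ELL2, LARP7 and AFF4. The ranges of neighbours overlapped except between MEPCE and ELL and between ELL2 and LARP7. In R749H the order was MEPCE, ELL, HEXIM1, CCNT2, ELL2, CDK9, CCNT1, AFF4 and LARP7. Here HEXIM1 (9.94 CPM or more) was also separated from CCNT2 (8.01 CPM or less), as MEPCE was from ELL, and the other neighbours overlapped.

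Within 3 pairs of related genes, the shares of reads were compared after the values had been seen, so they are given without a test. How often such shares did not overlap in other pairs of genes was not counted. On the same reads, the expression test called HEXIM1 higher and HEXIM2 lower (given below), so their shares restate these calls. HEXIM1 took 35.7%, 14.9%, 19.6%, 18.7% and 8.33% of the reads of HEXIM1 and HEXIM2 in WT replicates 1 to 5, and 49.1%, 59.8%, 81.8% and 53.1% in R749H replicates 1 to 4. HEXIM2, which inhibits P-TEFb in the same way, thus had more reads than HEXIM1 in every WT library and in R749H replicate 1 (85 against 82), and fewer in the other 3 R749H libraries. CCNT1 took 41.1% ± 14 (SD, n = 5) of the reads of the T-type cyclins in WT and 38.0% ± 17.9 (SD, n = 4) in R749H, with overlapping libraries. ELL took 60.6% to 87.1% of the reads of ELL and ELL2 in WT and 84.6% to 90.4% in R749H, which overlapped.

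**Figure D3:**
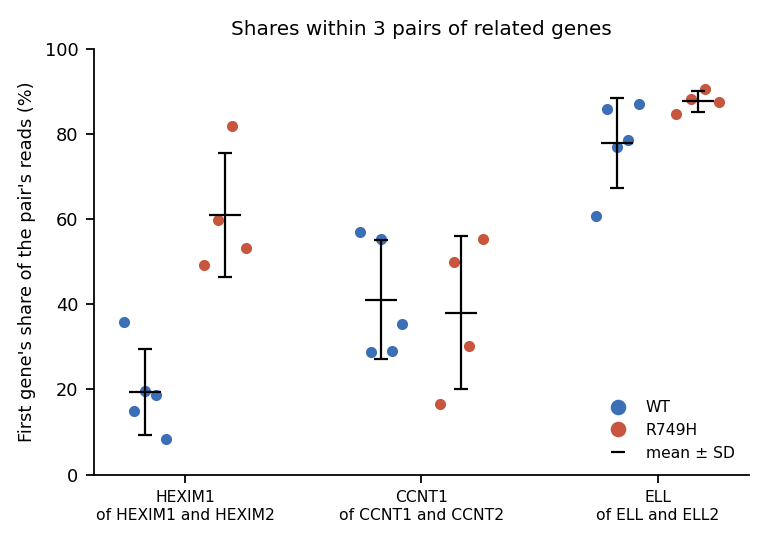
Share of the first gene in the reads of each of 3 pairs, in percent, for each library (points, WT blue, R749H red) with the mean and SD (bars). HEXIM1 was at 8.33% to 35.7% in WT and 49.1% to 81.8% in R749H libraries, while the other 2 pairs overlapped. The expression test called HEXIM1 higher and HEXIM2 lower on the same reads, so the shares of this pair restate these calls.

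The study concerns how the position of 3’ ends depends on the speed of Pol II. Of the 5 members that averaged 20 or more reads per library (CDK9, CCNT2, HEXIM1, MEPCE and ELL), none was called for the odds of ends downstream of the gene's median position with limma, with adjusted p from 0.597 to 0.970, and none had an unadjusted p under 0.05. Over all 7754 genes tested, 4 (0.0516%) were called, all lower in R749H, and 741 (9.56%) had an unadjusted p under 0.05. The log2 odds were lower in R749H for ELL (-1.49, SE 0.80), CCNT2 (-1.45, SE 0.90) and CDK9 (-0.72, SE 0.61). They were higher for MEPCE (0.35, SE 0.25) and HEXIM1 (0.10, SE 0.57). The median position lay within the main site, at +2087 in ELL, +2756 in CCNT2, +537 in CDK9, +563 in MEPCE and +1826 in HEXIM1. For HEXIM1 and MEPCE, most ends counted as downstream were a few nt further in the same site. Their values thus do not compare one site with another. For ELL the ends counted as downstream were 1.35% to 9.09% of its reads in WT and 0% to 3.33% in R749H. In an alternative, the gene was divided midway between the outermost isoforms that held at least 5% of its pooled reads. The log2 odds of ELL were then 0.67, of opposite sign.

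At the level of sites, 12 sites of CCNT2, CDK9, ELL and HEXIM1 could be tested, and none was called (limma adjusted p from 0.222 to 0.932, 1 site at an unadjusted p under 0.05), against 9 of 9299 sites (0.0968%) of all genes. The main site of HEXIM1, +1826, held 63.3%, 68.2%, 66.7%, 86.8% and 90.9% of its reads in WT and 76.8%, 83.6%, 95.7% and 81.4% in R749H libraries, which overlapped. The nearer site +379 held 16.1% ± 14.9 (SD, n = 5) in WT and 7.22% ± 5.16 (SD, n = 4) in R749H. R749H replicate 3, with few isoforms of 1 read, had 0 of 117 reads at +379, against 6.98% to 11.0% in the other R749H libraries. When 1 library was left out, the difference in log2 odds was 0.38 to 1.26 for +1826 and -2.17 to -0.51 for +379. The reads at the main site were 10 to 46 per library in WT and 35 to 112 in R749H.

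ELL had its main site +2087 at 53.5% ± 7.97 (SD, n = 5) of reads in WT and 60.3% ± 4.86 (SD, n = 4) in R749H. The site +1857, upstream of it, was at 30.3% ± 9.68 and 26.8% ± 6.21. The difference in log2 odds was 0.39 (SE 0.37) for +2087 and -0.24 (SE 0.44) for +1857. R749H replicate 3 was at 67.4% for +2087, against 56.7% to 58.7% in the other R749H libraries, and had 0 of 132 reads at +2052. Summed over the 5 WT and the 4 R749H libraries, +2087 had 188 and 326 reads and +1857 had 94 and 143 reads, so both sites had more reads in R749H.

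CDK9 ended at +532 in 48.6% ± 21.3 (SD, n = 5) of WT reads and 61.2% ± 11.4 (SD, n = 4) of R749H reads. The sites beyond its annotated end, +3503 and +3557, held 30.3% ± 15.5 and 15.9% ± 7.22 in WT and 19.3% ± 14.2 and 14.5% ± 14.5 in R749H. WT replicate 1 was the extreme library at +532 (14.3%) and at +3503 (57.1%), on 7 reads of the gene. None of the 3 sites of CDK9 had an unadjusted p under 0.05.

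CCNT2 gave the smallest p among the sites of the members, at its most distal site +4691, next to the annotated end at 4694 nt. The site held 5.13% of the gene's pooled reads, just over the 5% needed for a test. Its mean shares were 9.22% in WT and 1.25% in R749H, so it entered the test through WT. When 1 library was left out, it was still tested in 5 settings. Its p and the separation of its groups are therefore descriptions only. This site had 2, 2, 3, 3 and 1 reads in WT replicates 1 to 5 and 1, 0, 0 and 0 in R749H replicates 1 to 4. The shares were 7.14%, 5.41%, 17.6%, 6.82% and 9.09% in WT and 5.0%, 0%, 0% and 0% in R749H. Every WT library had a read there and 3 of 4 R749H libraries had none listed. The percentages of the groups did not overlap (5.41% or more against 5.0% or less), which was so for 6.34% of 9208 sites of genes with reads in every library, whereas the log2 odds that were tested, with 0.5 reads added, overlapped. The log2 odds were lower by -1.84 (SE 0.54) in R749H with an unadjusted p of 0.00592 and a limma adjusted p of 0.222, so the site was not called. Without R749H replicate 3 the log2 odds were -1.52 (adjusted p = 0.287). An unadjusted p under 0.05 was found for 1281 (13.8%) of the 9299 sites tested. The main site of CCNT2, +2756, was at 66.7% ± 11.7 (SD, n = 5) and 70.0% ± 19.4 (SD, n = 4).

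**Figure D4:**
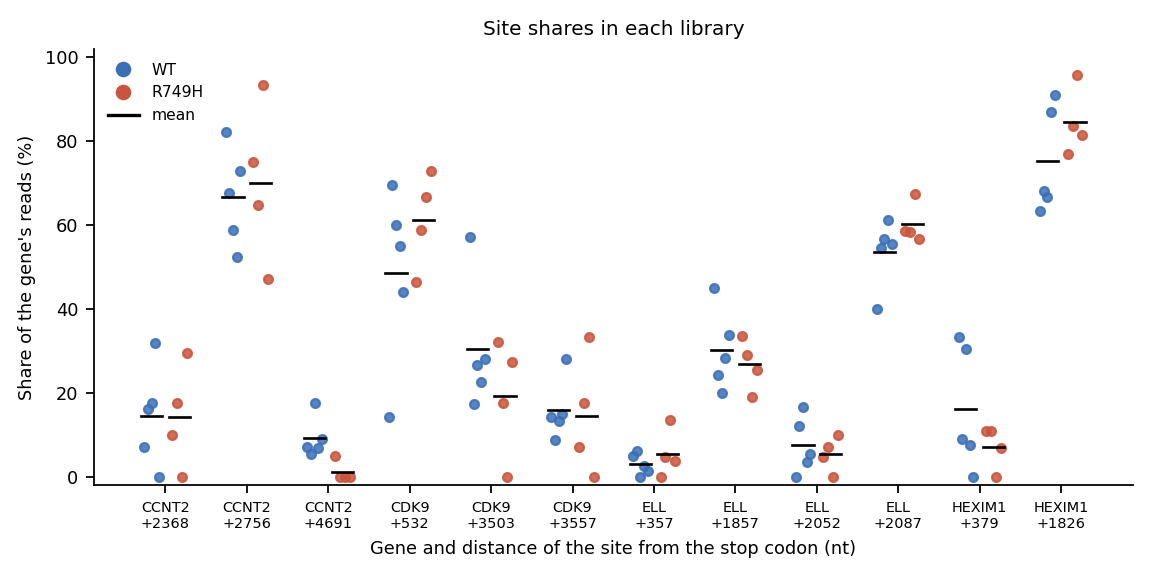
Shares of the 12 sites tested, in percent of the reads of the gene, for each library (points, WT blue, R749H red) with the group mean (line). The groups overlap at every site but CCNT2 +4691, where the WT libraries are at 5.41% to 17.6% and the R749H libraries at 0% to 5.0%. This site passed the 5% bound for a test through its shares in WT.

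ELL2 and CCNT1 had fewer than 20 reads per library on average and are described only. ELL2 was spread over +1323, +1480 and +3771, which held 17.9%, 36.9% and 44% of its summed reads in WT and 35.5%, 36.8% and 27.6% in R749H. Its distal site +3771 was at 36.4% to 50% in each WT library and at 0% to 42.3% in R749H, with no read listed in R749H replicate 3. CCNT1 had 93.8% and 92.7% of its summed reads at +4570.

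Single isoforms within these sites could be followed for the deeper genes. The main site of MEPCE was almost 1 position wide, with 87.2% ± 1.69 (SD, n = 5) of the gene's reads at +563 in WT and 85.8% ± 1.92 (SD, n = 4) in R749H, and 6.47% ± 1.42 and 7.94% ± 1.72 at +565. The main site of HEXIM1 was divided between +1826, at 29.8% ± 13.0 in WT and 37.4% ± 6.16 in R749H, and +1830, at 36.5% ± 16.5 and 30% ± 12.3. ELL +2087 was held mostly by 1 isoform, at 50.7% ± 7.15 and 59.5% ± 5.41 of its reads. Of 20 isoforms tested in 5 members, none was called with limma, against 10 of 23983 (0.0417%) over all genes. An unadjusted p under 0.05 was found for 2 of the 20 (CCNT2 +2755 and +4691) and for 8.13% of all isoforms tested. CCNT2 +4691 entered this test too through its shares in WT.

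Within the site of CCNT1, which was singled out after its values were seen and was too shallow for the test, the isoforms +4570 and +4574 had similar reads in WT and unequal reads in R749H. The isoform +4570 held 45.9%, 40%, 42.9%, 44.4% and 50% of the reads in WT and 50%, 70.6%, 76.9% and 57.1% in R749H. The isoform +4574, which lies 4 nt downstream, held 48.6%, 53.3%, 42.9%, 44.4% and 33.3% in WT and 0%, 29.4%, 23.1% and 28.6% in R749H. The percentages of the groups did not overlap at +4574, on 2 to 18 reads per WT library and 0 to 6 per R749H library. Percentages that did not overlap were found for 3.4% of 23750 tested isoforms whose gene had reads in every library. Those genes averaged 20 or more reads per library, so this share is from deeper genes than CCNT1.

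Of 30 other genes listed for the pathway, 29 had reads and 25 were tested, of which 2 were called higher (8%), 3 lower (12%) and 20 not called, against 10.9% and 12.9% of all genes. HEXIM2 fell from 22.0 ± 3.44 CPM in WT (SD, n = 5) to 10.2 ± 3.37 CPM in R749H (SD, n = 4), a ratio of 0.451 (95% interval 0.316 to 0.644, limma adjusted p = 0.00327). CDK12, a kinase of the Pol II C-terminal domain, fell from 8.33 ± 3.72 to 2.80 ± 1.90 CPM (limma adjusted p = 0.0164), while its cyclin, CCNK, rose from 37.6 ± 5.02 to 55.7 ± 11.5 CPM (limma adjusted p = 0.0467). The log2 change of CDK12 was -1.81, and -1.17 (adjusted p = 0.0282) without R749H replicate 3, which had 2 reads of it. PPM1G, a phosphatase that helps to release P-TEFb from 7SK, rose from 160 ± 34.1 to 258 ± 31.3 CPM (limma adjusted p = 0.0101). ICE2, of the little elongation complex, in which ELL is also found, fell from 50.7 ± 8.66 to 33.5 ± 9.52 CPM (limma adjusted p = 0.0486).

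The calls of HEXIM2, CDK12 and PPM1G held when each library was left out in turn. Those of CCNK and ICE2 held in 2 and 3 of these 9 settings. Without TMM factors, neither of the 2 rises was called. With the replicate block, 3 of 24 genes tested were called in place of 5 of 25, CCNK and ICE2 having limma adjusted p of 0.0694 and 0.0894. Of the other super elongation subunits, 0 of 7 tested were called with limma (1 at an unadjusted p under 0.05, 0 called with edgeR and 1 with DESeq2), the largest log2 changes being -0.62 (ELL3) and -0.54 (AFF3). The gene with an unadjusted p under 0.05 was MLLT1, at 0.53 (limma adjusted p = 0.0814), and the DESeq2 call was higher in R749H. Of the pausing factors, 0 of 5 tested were called with limma, edgeR or DESeq2, and SUPT4H1 (0.39) and NELFCD (0.35) had an unadjusted p under 0.05 with limma, as had 37.5% of all genes. None of the 23 genes tested for a distal shift with limma was called (0 at an unadjusted p under 0.05), nor was any of 27 sites (4 at an unadjusted p under 0.05).

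**Figure D5:**
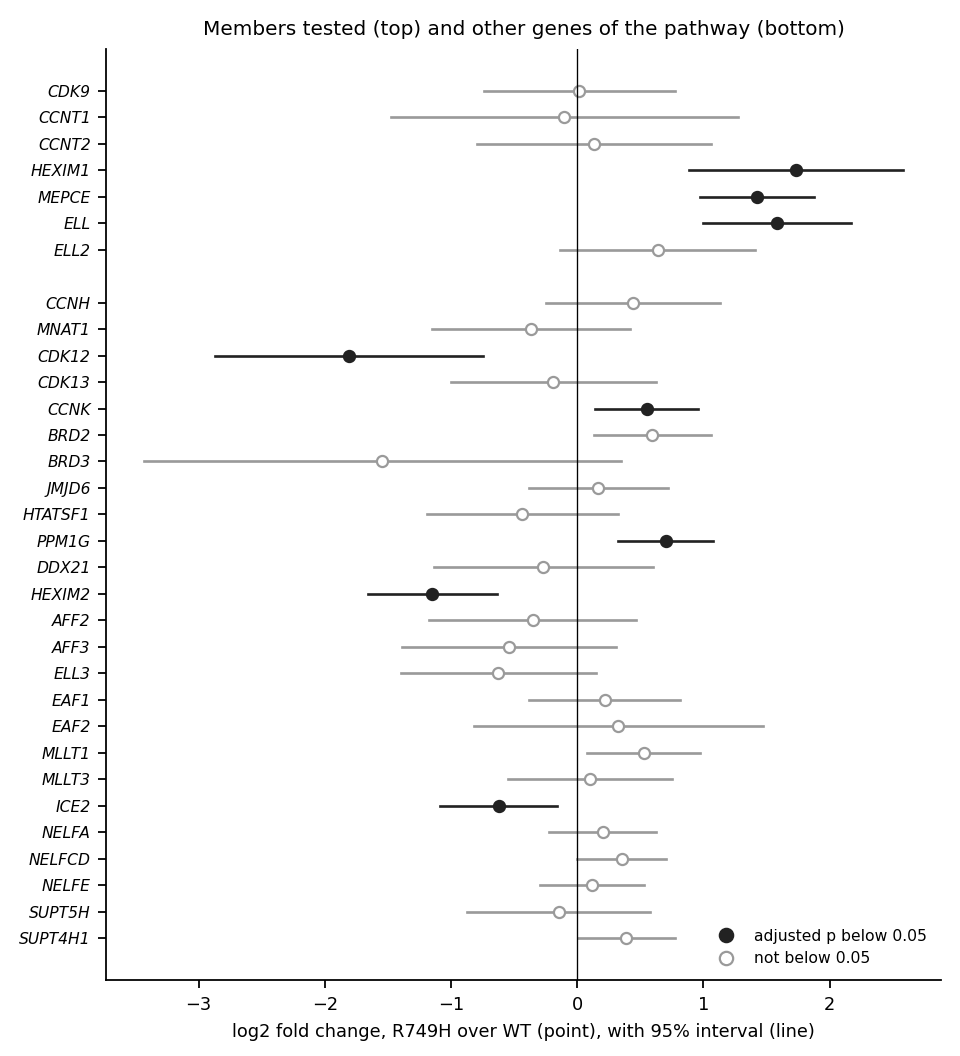
Log2 change of R749H over WT (x axis) with its 95% interval for the 7 members tested (top) and the 25 other pathway genes tested (bottom). Filled points passed an adjusted p of 0.05 with limma, among them HEXIM1, MEPCE and ELL at 1.43 to 1.73 and HEXIM2 and CDK12 at -1.15 and -1.81.

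For each member tested, the gene with the most similar log2 level over the 9 libraries was looked up among 7873 genes with a mean of at least 20 reads. HEXIM1 was most like SRSF9 (Pearson's r 0.98, Spearman's rho 1), MEPCE like DYNC1LI2 (r 0.981, rho 0.983), and ELL like EPHA2 (r 0.984, rho 0.933). CDK9 was most like PTP4A3 (r 0.948, rho 0.883), CCNT1 like ARSK (r 0.965, rho 0.95), CCNT2 like CCDC50 (r 0.925, rho 0.95), and ELL2 like VCP (r 0.971, rho 0.983). When the 2 libraries farthest from the median were left out, r was 0.656 for CDK9 and 0.902 or more for the others. These are the highest of many correlations on the same 9 libraries and depths, and those of HEXIM1, MEPCE and ELL include the difference between groups, so they are descriptions only.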

How the data were processed

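3’ READS libraries of 5 WT and 4 R749H replicates were used, grouped by their titles; 4 NETseq libraries of the same series and the 2 tables of pooled replicates were not used here. The authors trimmed the reads, removed leading Ts, mapped them to hg19 (bowtie per the methods of the study, Bowtie2 2.3.2 per the submitters' processing notes), kept those with non-templated As, removed mitochondrial reads and assigned 3’ ends to a gene within 5 kb of a CCDS stop codon. How reads with several matches were treated is not given in the sources used here. The deposited signal values give the reads of each isoform, which the authors scaled to 7000000 poly(A) reads per replicate. They were divided by the smallest step of each library, which gave whole reads within a tolerance of 0.0051 for all but 2 of 726509 values. The sources do not say that the random nt at the start of reads were used to count molecules, so limits from counts cover counting error only. No 2 libraries of a group agreed within sampling noise (chi-square per degree of freedom across genes of 4.14 or more).

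The members and the lists of pathway and marker genes were chosen with earlier results of these data known. The text names all members, pathway genes past a threshold or otherwise up to 2 per role with the largest change, and the most similar gene of each member. A gene of the pathway list and a sequence are not reported here. Levels are read counts per 1000000 (CPM) with TMM factors. Expression was tested with limma 3.58.1 (trend) on log2 CPM after adding 0.5 reads, so folds of low genes are understated, for genes kept by filterByExpr of edgeR 4.0.16. Distal shifts, site shares and isoform shares were tested with limma on log2 odds after adding 0.5 reads, for genes that averaged 20 or more reads per library and features with 5% to 95% of a gene's reads. All p-values are two-sided, adjusted by the Benjamini-Hochberg method over all features tested. The tests were tried on simulated data. Alternatives were edgeR and DESeq2 1.42.0 on the recovered reads, other scaling, filters, prior counts, joining distances and divisions, a replicate block, and each library left out. Those for the pathway genes, for the shares within pairs and the window of 40 nt were added after seeing the data. Annotation was GENCODE 44 lifted to GRCh37.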

Additional observations from a re-analysis of the deposited data

Results flagged for a closer look

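In 58 groups of 4 or 5 libraries (levels, downstream shares, site shares and pair shares of the members), 3 held a library far from the rest by Dixon's criterion, where chance gives about 1 in 20. The level of CCNT1 in WT replicate 1 was 11.9 CPM, against 1.05 to 3.43 CPM in the other WT libraries, and without this library the log2 change of CCNT1 was 0.39 in place of -0.10, neither being called. The share of CDK9 reads at +3503 in WT replicate 1 was 57.1% (4 of 7 reads, exact 95% binomial interval 18.4% to 90.1%), against 17.4% to 28.0% in the other WT libraries. The share of CCNT2 reads at +4691 in R749H replicate 1 was 5.0% (1 of 20 reads, exact 95% binomial interval 0.127% to 24.9%), against 0% in the other R749H libraries. With all the others at 0%, any read there would have been flagged, so this flag carries no weight.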

How the results depend on the processing

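HEXIM1, MEPCE and ELL were called higher in all 16 alternatives of the expression test, with log2 changes of 1.41 to 1.98, 1.11 to 1.55 and 1.26 to 1.85 and adjusted p of 9.54e-05 to 0.0204, 1.05e-08 to 0.00224 and 3.94e-07 to 0.0055. No other member was called in any. The count tests on the recovered reads called 2358 genes (edgeR) and 2653 (DESeq2), and leaving out 1 library gave 1520 to 2668 called genes and 3 called members. Changes near 0 turned in sign without being called. These were CDK9 with edgeR (-0.0055), without a filter (-0.0043) and without TMM factors (-0.29). CCNT2 turned without TMM factors (-0.18) and with the replicate block (-0.15). Leaving out 1 library gave -0.17 to 0.24 for CDK9, -0.15 to 0.39 for CCNT2 and -0.46 to 0.53 for CCNT1.

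In alternatives added after seeing the data, 3 pathway genes in place of 5 were called without TMM factors. When 1 library was left out, 3 to 8 were called. These were 3 without WT replicate 2, 3, 4 or 5 or R749H replicate 2 or 4, and 8 without R749H replicate 1. The edgeR test called 6 and DESeq2 7, ICE2 was not called with RLE factors (adjusted p = 0.0528), and CCNK was not called without the filter (adjusted p = 0.0573).

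For shifts and shares, no member was called in any alternative. The distal shift of ELL was 0.67 with the midpoint division. Leaving out 1 library gave 3 to 7 called distal shifts over all genes (7 without R749H replicate 1), 0 to 12 called sites (0 without any 1 of the WT libraries or R749H replicate 2 or 4) and 4 to 16 called isoforms (4 or 5 without WT replicate 1, 2, 3 or 4, and 16 without R749H replicate 1). It gave log2 odds of shifts from -0.95 to 0.062 (CDK9) and -0.32 to 1.2 (HEXIM1), and log2 odds of sites from -0.96 to 0.63 (CCNT2 +2368), -0.28 to 0.94 (CCNT2 +2756), -1.03 to 0.17 (CDK9 +3557), -0.25 to 1.21 (ELL +357), -0.42 to 0.0012 (ELL +1857) and -1.49 to 0.15 (ELL +2052). For single isoforms it gave -0.41 to 0.97 (CCNT2 +2756), -1.17 to 0.27 (CCNT2 +2368), -0.94 to 0.79 (CDK9 +532), -0.65 to 0.41 (CDK9 +3503) and -0.61 to 0.59 (CDK9 +3557). With a mean of 50 reads, 32 of 5402 sites were called, against 9 of 9299. Isoforms with 10% to 90% of reads gave 6 calls and a prior count of 0.1 gave 21, with which the change of CDK9 +3557 was -0.019. Where not stated, the cause was not tested.

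The replicate block, which drops WT replicate 5, called 0 shifts (669 at an unadjusted p under 0.05), 0 sites (1125) and 0 isoforms (1761), 2093 genes in expression and 3 pathway genes. The labels do not say whether libraries of the same number were prepared together. The deviations of replicates 1 to 4 of both groups correlated at -0.07, 0.05, 0.02 and -0.05. No R749H library correlated best with the WT library of its number. These values show no deviation shared by number, and cannot decide how the libraries were prepared. No isoform was assigned to more than 1 gene, so that alternative changed no input and was not run. LARP7 and AFF4, at 29 and 30 reads in all, were too low for the test of expression, and CCNT1 and ELL2, at 152 and 160, for those of shares.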
